A study of Homo sapiens with 12 samples.

Results

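Glycolysis and hypoxia genes are described here as 41 named genes, all of which are among the 23284 gene symbols listed for each library. They were chosen by name, though with earlier results of these data known. There are 22 genes of glucose uptake, the glycolytic pathway and lactate handling and 19 genes of the response to low oxygen. Of the 41, 39 were among the 12946 genes that were tested. The study sequenced RNA of PANC-1, a human pancreatic cancer cell line, to compare a stem-like population with the rest. The cells carry a retroviral ZsGreen reporter joined to the degron of ornithine decarboxylase, which the proteasome destroys, so that cells with low proteasome activity stay green. Degron (−) cells are the infected line itself, in which ZsGreen-positive cells were rare. Degron (++) cells were obtained from it by repeated sorting and culture of the positive cells, and are the brightest fraction of the enriched population.

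Both populations were cultured in low glucose medium with serum and G418. There were 3 conditions, namely unirradiated cells at 48 h and cells given 4 Gy of caesium gamma rays, taken at 30 h or 48 h. With 2 libraries in each of the 6 groups there were 12 in all. The starting point of the hours is not stated in the labels, and no unirradiated cells were taken at 30 h. The labels of the 6 libraries taken as degron (−) conflict, since the titles call them ZsGreen-negative and the descriptions d+. The reporter is not among the gene symbols, so the sort could not be checked. Replicates are not stated to be separate cultures, and the p-values therefore measure only the spread between libraries, which may be technical.

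Glycolysis turns glucose into pyruvate in the cytosol, and pyruvate is either reduced to lactate and exported or enters the mitochondria. Hypoxia-inducible factors, HIF-1α and its relative HIF-2α bound to ARNT, are destroyed when oxygen is present, because prolyl hydroxylases mark them for the VHL ubiquitin ligase and the proteasome. When oxygen is scarce they persist and switch on glucose transporters, many glycolytic enzymes and genes such as VEGFA, BNIP3 and CA9. Pancreatic cancers are poorly perfused and are known for high glycolytic activity.

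The values are FPKM, read fragments scaled by exon length and by the reads mapped in the library, which the authors computed. The number of reads behind them is unknown, and from the commonest ratios of low values each library had 0.845 to 1.163 of the mean depth. Fold changes are on the log2(FPKM + 1) scale, which understates those of low genes, with the standard error (SE) from limma over 6 group means, and the threshold is a Benjamini-Hochberg adjusted p under 0.05 over all 12946 tested genes. In bulk RNA, fewer cells that express a gene and less RNA per cell cannot be told apart. The populations differed widely: vimentin (VIM) had 13.2 to 19.2 FPKM in degron (++) libraries, against 2376 to 2711 in degron (−), and ZEB1 at most 0.067 against at least 7.84. All 6 epithelial markers (EPCAM, CDH1, KRT7, KRT8, KRT18 and KRT19) reached 1 FPKM in both populations, with sums of 7184 to 8369 in degron (++) and 4226 to 5137 in degron (−). The ratio of mean FPKM, degron (++) over degron (−), was 7.26 for CDH1, 6.68 for KRT7 and 4.91 for EPCAM. It was 1.21 for KRT19, and 1.43 for KRT8 and 1.51 for KRT18, which made up most of the sums. No acinar, endocrine or endothelial marker reached 1 FPKM. CDKN2A, which lies in 9p21, a region known to be deleted in PANC-1, had 100 to 112 FPKM in degron (++) libraries, against 11.04 to 21.1 in degron (−), and its neighbours MTAP and CDKN2B were likewise above 0 in every library, at 2.83 to 5.001 and 0.907 to 2.83 FPKM in degron (−). Both populations therefore go against this feature of the line, the degron (++) libraries with the higher levels, and no comparison can be made without them. The macrophage marker CD68 had 124 to 165 FPKM in degron (−) and 2.91 to 4.62 in degron (++), with PTPRC at most 0.055 and CD3E listed at 0. Of the fibroblast markers, LUM had 13.8 to 24.7 against 0.290 to 1.61 FPKM and COL1A1 0.531 to 0.826 against 36.5 to 52.3, with PDGFRB at most 0.155 and DCN listed at 0. The part of these differences in the results below was not tested.

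HIF binds DNA at the core sequences ACGTG and GCGTG, which were searched on both strands in RefSeq promoter windows (GRCh38.p14) from 250 bases before to 50 bases after each gene start. Windows were found for 36 of the 41 genes, with no entry for SLC2A3, SLC16A1, VEGFA, BNIP3L and NDRG1. At least 1 start held a core in 33 of the 36 genes, or 91.7%, against 70.8% of the 8982 tested genes and 52.4% of all 27305 genes with an entry. ACGTG alone was found in 61.1%, 32.7% and 24.9% of these genes. Counted by window, which does not grow with the number of starts, the shares with a core were closer. They were 68.2% of 66 windows of the members, 60.8% of 13179 of the tested genes and 48.4% of 35116 of all genes. The cores are short, many genes have several starts, and many of the genes were listed because they are known HIF targets, so a match is a description of the letters and not a site. PGAM1, EGLN3 and P4HA2 had no match in their windows.

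The stretches that hold the cores upstream of the start are printed for 7 genes with an entry, which were picked by hand. They run 5′ to 3′ on the strand of the gene, with the cores in capitals. For a gene with several starts, the window with the most matches was taken. SLC2A1, HK1 and PDK3, which differed by at least 1 log2 unit in all 3 conditions, also have windows with a core and are not printed. BNIP3, ENO2 and ADM were the members furthest below degron (−) in degron (++) cells, and DDIT4 was far above it. LDHA, P4HA1 and PGK1 differed between 30 h and 48 h after 4 Gy in degron (++) cells. A CACGTG matches on both strands and was counted as 2 overlapping matches.
BNIP3: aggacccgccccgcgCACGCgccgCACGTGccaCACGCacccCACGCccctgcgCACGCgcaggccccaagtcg
ENO2: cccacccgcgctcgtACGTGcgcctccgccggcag
ADM: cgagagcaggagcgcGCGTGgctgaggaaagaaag
DDIT4: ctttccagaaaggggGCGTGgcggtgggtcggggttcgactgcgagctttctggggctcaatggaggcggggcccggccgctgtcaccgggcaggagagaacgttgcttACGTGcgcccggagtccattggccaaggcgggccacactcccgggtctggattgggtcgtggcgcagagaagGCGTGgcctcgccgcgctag
LDHA: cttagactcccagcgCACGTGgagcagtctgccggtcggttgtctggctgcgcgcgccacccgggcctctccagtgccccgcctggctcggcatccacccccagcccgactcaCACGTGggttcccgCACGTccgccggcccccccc
P4HA1: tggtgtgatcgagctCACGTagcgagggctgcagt
PGK1: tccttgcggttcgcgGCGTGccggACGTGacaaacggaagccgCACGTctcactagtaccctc
The stretch of BNIP3 covers chr10:131982008-131982081 on the minus strand, from 158 to 85 bases before the start, and holds 6 matches. ENO2, at chr12:6914447-6914481 on the plus strand, and ADM, at chr11:10304957-10304991 on the plus strand, hold 1 match each. That of DDIT4, at chr10:72273690-72273890 on the plus strand, holds 3. LDHA, at chr11:18394363-18394509 on the plus strand, holds 5 matches of ACGTG, the largest number of that core among the 7 stretches. P4HA1, at chr10:73096933-73096967 on the minus strand, holds 1, and PGK1, at chrX:78104022-78104084 on the plus strand, holds 3. Cores were present upstream of genes that were lower as well as higher in degron (++) cells. Since 33 of the 36 members with an entry held a core, this says nothing about either direction.

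To compare the populations, the 39 tested genes were read from the fit of all genes. At 0 Gy and 48 h, 17 were higher and 12 lower in degron (++) than in degron (−) cells, which is 43.6% and 30.8% of them, where 37.6% and 40.2% of all tested genes were higher and lower. At 4 Gy and 30 h, 24 were higher and 11 lower, against 38.3% and 40.8% of all genes. At 4 Gy and 48 h, 17 were higher and 11 lower, against 37.1% and 39.6%. The share of higher members therefore stood above the background most clearly at 30 h after 4 Gy, with 61.5%. Their median log2 fold change was 0.10, 0.34 and 0.13 in the 3 conditions, and that of all tested genes −0.02, −0.02 and −0.01. After rescaling each library to the same sum (TPM) the median of all genes moved to −0.21, −0.27 and −0.25 and that of the members to −0.10, 0.05 and −0.11. The split of the members was then 12 higher and 17 lower, 15 and 15, and 10 and 16. The shares of all tested genes under TPM were not counted, so this split has no background beside it.

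Past the threshold in each condition, and without overlap of the 6 degron (++) and 6 degron (−) libraries, 16 members were higher and 10 lower, where 32.1% and 34.9% of all tested genes were. The 22 glycolysis genes gave 12 of the higher and 4 of the lower ones, and the 17 tested hypoxia genes gave 4 and 6. Under quantile normalization, TPM and rescaling without MIR622, only the threshold was read anew, not the overlap of the libraries. MIR622 is a single gene that held 28.6% to 30.0% of the summed FPKM in degron (++) and 22.5% to 27.1% in degron (−) libraries. The sums were 829654 to 916877 FPKM in degron (++) and 707273 to 763064 in degron (−) libraries. TPM therefore lowers degron (++) values relative to degron (−) values, in part through this gene. All 10 lower genes passed as lower in each condition under these scalings. TPM and rescaling without MIR622 moved fold changes down, so these settings could hardly lose a lower call. The median of all tested genes was −0.13, −0.16 and −0.18 without MIR622, and 0.04, 0.04 and 0.05 under quantile normalization. The counts kept therefore do not rank the lower genes against the higher ones. Of the 16 higher genes, 13, 9 and 13 passed as higher in each condition. By the threshold alone, 14 members were higher and 10 lower in each condition under quantile normalization. The counts were 9 and 14 under TPM, and 13 and 12 without MIR622, against 16 and 10 in the main fit. Lower members thus outnumbered higher ones under TPM, but the shares of all tested genes were not counted under these scalings. HK2, GPI, PFKM, LDHA, SLC16A3, HIF1A and MXI1 lost a call under TPM, GAPDH, LDHA and SLC16A3 under quantile normalization, and PFKM, LDHA and SLC16A3 without MIR622.

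**Figure D1:**
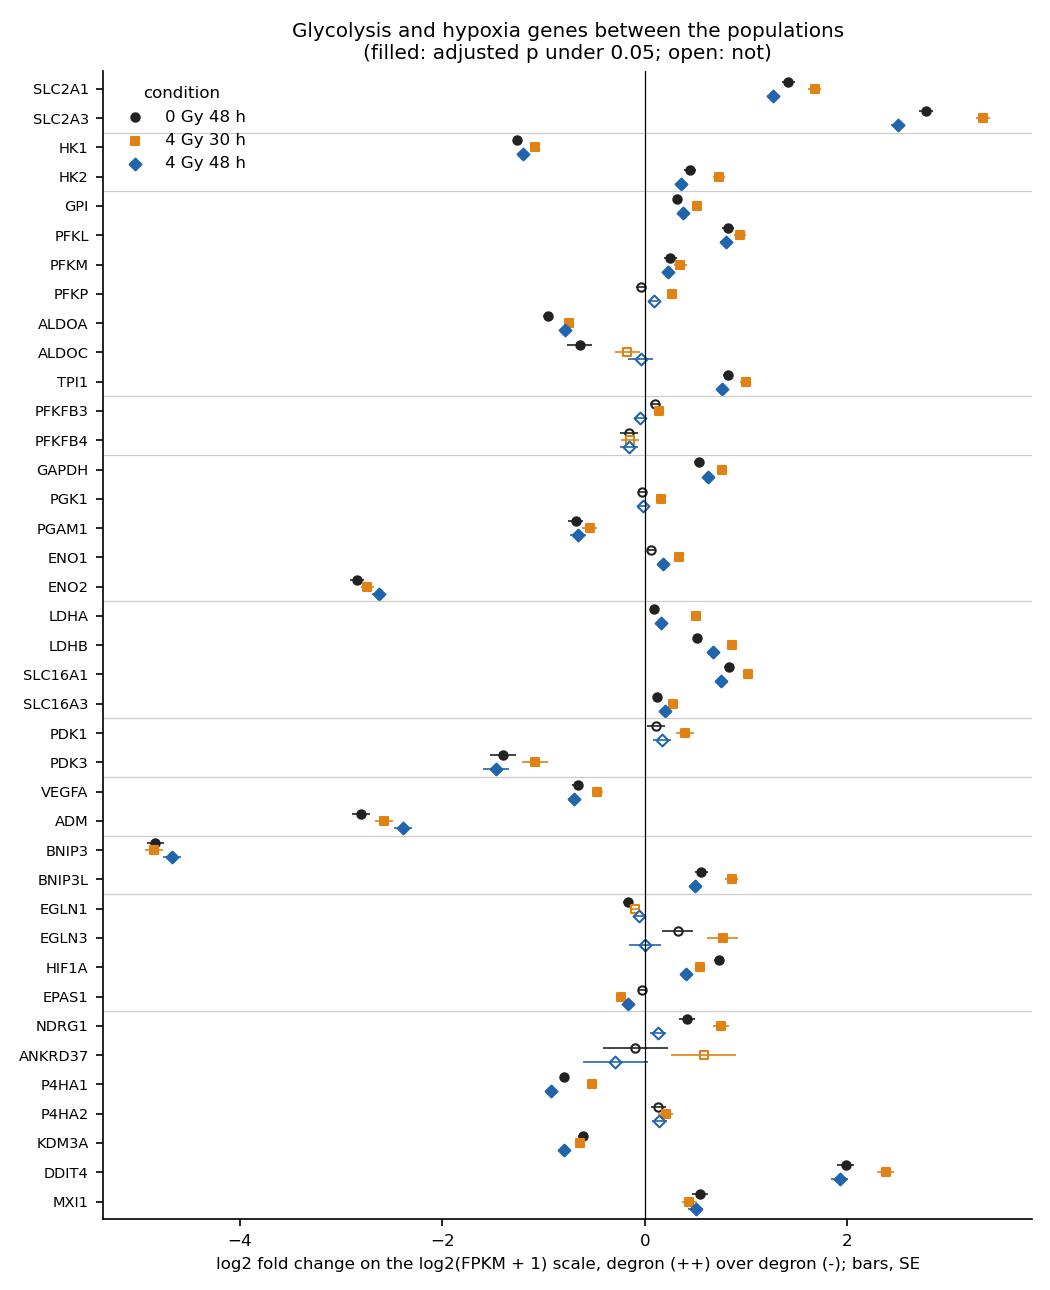
Log2 fold change of each tested member, degron (++) over degron (−), on the log2(FPKM + 1) scale, in 3 conditions (black circles, 0 Gy 48 h; orange squares, 4 Gy 30 h; blue diamonds, 4 Gy 48 h); bars are the SE, filled symbols have an adjusted p under 0.05 and lines part the roles. SLC2A3, DDIT4 and SLC2A1 lie furthest to the right, BNIP3, ENO2 and ADM furthest to the left.

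Glucose enters cells through facilitative transporters, of which SLC2A1 (GLUT1) is the common one and SLC2A3 (GLUT3) has a high affinity for glucose. In degron (++) cells SLC2A3 had 56.7 and 55.1 FPKM without irradiation, 57.0 and 52.9 at 30 h after 4 Gy, and 58.0 and 58.9 at 48 h after 4 Gy. In degron (−) cells it had 7.19 and 7.39, 4.76 and 4.30, and 8.87 and 10.2 FPKM. All degron (++) libraries lay far above all degron (−) libraries, with a ratio of mean FPKM of 7.92 over all conditions. The log2 fold change of SLC2A3 was 2.78 (SE 0.0685, adjusted p = 2e-09, limma) at 0 Gy, and 3.34 (30 h) and 2.50 (48 h) after 4 Gy.

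SLC2A1 had 72.1 and 77.8, 82.1 and 80.5, and 74.0 and 75.9 FPKM in degron (++) cells in this order of conditions, which is kept below. In degron (−) cells it had 28.0 and 26.8, 25.3 and 24.1, and 28.6 and 32.6 FPKM. The groups did not overlap, and the log2 fold change was 1.42 (SE 0.0629, adjusted p = 6.41e-08, limma) at 0 Gy, 1.68 at 30 h and 1.27 at 48 h after 4 Gy. SLC2A3 made up 39.7% to 44.0% of the summed FPKM of both transporters in degron (++) libraries and 15.2% to 23.9% in degron (−) libraries, a share that no single scaling factor per library can change.

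Hexokinases phosphorylate glucose and hold it in the cell. HK1, the widely expressed form, went the other way from the transporters, with 26.5 and 26.5, 32.8 and 33.7, and 26.9 and 28.4 FPKM in degron (++) cells. It had 62.9 and 67.2, 71.1 and 72.2, and 65.3 and 64.9 FPKM in degron (−) cells, all above the degron (++) libraries. The log2 fold change of HK1 was −1.26 (SE 0.0411, adjusted p = 1e-08, limma) at 0 Gy, −1.08 at 30 h and −1.20 at 48 h after 4 Gy. HK2, the HIF-inducible form, had 6.77 to 8.71 FPKM in degron (++) and 4.64 to 5.44 in degron (−) cells, and its log2 fold changes of 0.45, 0.73 and 0.36 passed the threshold, although at 4 Gy and 48 h not under TPM. HK1 and HK2 summed to 33.3 to 42.2 FPKM in degron (++) cells, below the 67.6 to 77.0 FPKM of degron (−) cells. HK2 took 19.9% to 21.2% of it in degron (++) libraries, against 6.14% to 7.73% in degron (−).

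The upper part of the pathway carries glucose 6-phosphate to the triose phosphates. GPI, which makes fructose 6-phosphate, had 164 to 195 FPKM in degron (++) and 130 to 138 in degron (−) cells, with log2 fold changes of 0.32, 0.51 and 0.38, of which only the one at 30 h passed under TPM. Among the phosphofructokinases, which commit sugar to glycolysis, the liver form PFKL was higher in degron (++) cells in every condition and under every scaling, with 46.8 to 54.6 against 25.3 to 29.4 FPKM and log2 fold changes of 0.82, 0.94 and 0.80. The muscle form PFKM had 35.8 to 39.2 against 28.1 to 33.5 FPKM, and its log2 fold changes of 0.25, 0.35 and 0.23 fell below the threshold under TPM, with −0.03 at 4 Gy and 48 h. The platelet form PFKP, the most abundant of the 3 genes, overlapped between the populations, with 168 to 204 and 160 to 178 FPKM, and passed only at 4 Gy and 30 h, by 0.27, or −0.01 under TPM. PFKL made up 17.4% to 20.0% of the summed FPKM of the 3 genes in degron (++) libraries, against 11.6% to 12.4% in degron (−).

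Aldolase splits the sugar. ALDOA, the gene of the upper pathway with the highest mean FPKM over all 12 libraries, had 700 and 707, 845 and 823, and 699 and 777 FPKM in degron (++) cells and 1363 and 1365, 1390 and 1421, and 1297 and 1250 FPKM in degron (−) cells. No degron (++) library reached the lowest degron (−) library, and the log2 fold change was −0.95 (SE 0.0497, adjusted p = 1.75e-07, limma) at 0 Gy, −0.75 at 30 h and −0.79 at 48 h after 4 Gy. ALDOC, at 2.63 to 5.30 FPKM, was lower only at 0 Gy, by −0.64. TPI1, which interconverts the triose phosphates made by aldolase, was higher, with 738 to 818 against 392 to 449 FPKM, a mean of 767 in degron (++) cells where ALDOA had 759, and log2 fold changes of 0.82, 0.996 and 0.77. Adjacent steps of the pathway thus differed in opposite directions. PFKFB3, which makes the activator of phosphofructokinase, had 13.1 to 15.7 and 12.3 to 14.7 FPKM and passed only at 4 Gy and 30 h, by 0.14, with −0.13 under TPM and −0.01 without MIR622. Its relative PFKFB4 had 2.32 to 2.72 and 2.64 to 3.28 FPKM and log2 fold changes of −0.16, −0.14 and −0.16, none past the threshold.

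The lower part of the pathway yields ATP and pyruvate. GAPDH was the reference gene of the study's quantitative PCR, which is reported for the KRT13 knockdown within degron (++) cells. GAPDH was the most abundant member, with 4446 and 4617, 5088 and 5005, and 4685 and 4868 FPKM in degron (++) cells. It had 3177 and 3090, 2924 and 3017, and 3016 and 3198 FPKM in degron (−) cells. The log2 fold changes were 0.53 (SE 0.0489, adjusted p = 7.94e-06, limma), 0.76 and 0.62, but under quantile normalization none passed, with 0.26, 0.28 and −0.03. That setting gives all libraries the same set of values, which limits how far a very abundant gene can differ. It therefore cannot decide whether GAPDH differed. The annotation names 62 GAPDH pseudogenes, and reads of such copies may be shared. PGK1, which makes ATP, overlapped between the populations and passed only at 4 Gy and 30 h, by 0.16, which turned to −0.03 under quantile normalization and −0.12 under TPM. PGAM1, the mutase that follows PGK1 and has 13 named pseudogenes, was lower, with 29.8 to 35.3 against 48.2 to 54.6 FPKM and log2 fold changes of −0.68, −0.55 and −0.66.

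Enolase makes phosphoenolpyruvate, and the 2 forms among the members differed. ENO2, the neuronal form and a HIF target, had 1.75 and 1.74, 1.92 and 1.78, and 1.96 and 1.76 FPKM in degron (++) cells and 17.98 and 19.5, 18.6 and 17.5, and 17.0 and 16.2 FPKM in degron (−) cells. Every degron (−) library was well above every degron (++) library, and the ratio of mean FPKM, degron (−) over degron (++), was 9.79. The log2 fold change of ENO2 was −2.84 (SE 0.0651, adjusted p = 1.24e-09, limma), −2.74 and −2.63. ENO1, the common form, had 1753 to 1983 and 1532 to 1760 FPKM and held at least 98.8% of the summed FPKM of the pair in each library. Its log2 fold changes were 0.07, 0.34 and 0.18, of which those after 4 Gy passed, but under quantile normalization these were −0.08 and −0.24 and at 48 h they were −0.09 under TPM and −0.02 without MIR622.

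Lactate dehydrogenase interconverts pyruvate and lactate, LDHA being the form favoured in glycolytic cells and LDHB that of oxidative tissue. LDHB had 791 and 816, 974 and 977, and 912 and 908 FPKM in degron (++) cells and 565 and 557, 531 and 542, and 559 and 583 FPKM in degron (−) cells. The log2 fold change of LDHB was 0.52 (SE 0.0335, adjusted p = 7.33e-07, limma) at 0 Gy, 0.86 at 30 h and 0.67 at 48 h after 4 Gy, with the same direction under each scaling. LDHA had 779 and 797, 1036 and 1041, and 813 and 811 FPKM in degron (++) cells and 731 and 745, 727 and 732, and 717 and 732 FPKM in degron (−) cells. At 30 h after 4 Gy its libraries in degron (++) cells were the highest of all. The log2 fold change of LDHA was 0.51 (SE 0.0299, adjusted p = 3.45e-07, limma) there and passed under each scaling, while those of 0.09 at 0 Gy and 0.16 at 4 Gy and 48 h turned negative under quantile normalization (−0.17 and −0.19), TPM (−0.12 and −0.10) and without MIR622 (−0.03 and −0.03). The share of LDHB in the summed FPKM of both was 48.4% to 52.9% in degron (++) libraries, against 42.2% to 44.4% in degron (−).

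Monocarboxylate transporters carry lactate across the membrane. SLC16A1 (MCT1) had 58.3 and 57.8, 69.3 and 70.4, and 67.9 and 68.1 FPKM in degron (++) cells and 33.6 and 31.0, 33.3 and 34.8, and 40.2 and 39.9 FPKM in degron (−) cells. The groups did not overlap, and the log2 fold change was 0.83 (SE 0.0412, adjusted p = 1.31e-07, limma), 1.017 and 0.75. SLC16A3 (MCT4), the HIF-inducible exporter, had 217 to 254 against 199 to 206 FPKM, and its log2 fold changes of 0.12, 0.28 and 0.20 turned to −0.09, −0.0029 and −0.06 under TPM. SLC16A1 made up 20.4% to 23.4% of the summed FPKM of both in degron (++) libraries, against 13.4% to 16.7% in degron (−).

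**Figure D2:**
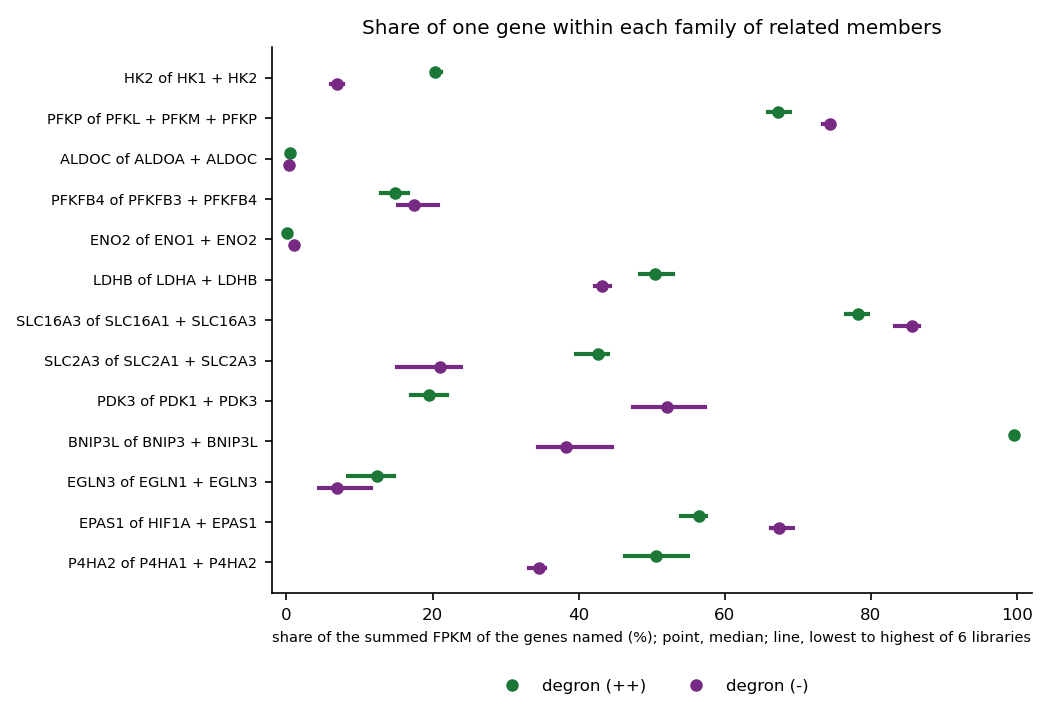
Share of one gene in the summed FPKM of the members of its family (%), for degron (++) (green) and degron (−) libraries (purple); points are medians and lines run from the lowest to the highest of 6 libraries. SLC2A3, HK2 and LDHB took a larger share in degron (++) and PDK3 and ENO2 a smaller one, with no overlap of the lines. Relatives that are not among the 41 genes, such as PDK2, are not in the sums.

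Pyruvate dehydrogenase kinases inhibit pyruvate dehydrogenase in the mitochondria, which turns pyruvate into acetyl-CoA. PDK3 had 1.01 and 1.26, 1.46 and 1.60, and 1.01 and 1.06 FPKM in degron (++) cells and 4.92 and 4.37, 3.93 and 4.796, and 3.997 and 5.37 FPKM in degron (−) cells. Its libraries did not overlap, and the log2 fold change was −1.40 (SE 0.129, adjusted p = 8.15e-06, limma), −1.08 and −1.47. PDK1, the HIF-induced form, had 4.19 to 6.31 and 3.66 to 4.67 FPKM and passed only at 4 Gy and 30 h, by 0.40, though not under TPM. PDK3 made up 17.1% to 22.0% of the summed FPKM of both in degron (++) libraries, against 47.4% to 57.2% in degron (−). This sum leaves out PDK2, which is no member. PDK2 was more abundant than either, with 6.96 to 9.63 FPKM in degron (++) and 9.27 to 11.9 in degron (−) libraries.

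Of the oxygen-sensing genes, HIF1A, which encodes HIF-1α, had 55.2 and 51.0, 46.5 and 50.4, and 46.9 and 46.6 FPKM in degron (++) cells and 31.9 and 31.3, 33.2 and 32.5, and 35.5 and 34.7 FPKM in degron (−) cells. All degron (++) libraries were above all degron (−) libraries, and the log2 fold change was 0.73 (SE 0.0489, adjusted p = 9.3e-07, limma), 0.55 and 0.40, the last of which did not pass under TPM. EPAS1, which encodes HIF-2α, had 65.0 and 62.2, 62.5 and 63.7, and 62.5 and 63.0 FPKM in degron (++) cells and 63.8 and 65.6, 74.9 and 73.7, and 72.6 and 68.4 FPKM in degron (−) cells. At 0 Gy the populations overlapped with a log2 fold change of −0.02, and after 4 Gy EPAS1 was lower in degron (++) cells by −0.23 and −0.17. HIF1A made up 42.5% to 45.9% of the summed FPKM of both in degron (++) libraries, against 30.6% to 33.7% in degron (−). These are mRNA levels, and HIF proteins are set mainly by their breakdown.

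EGLN1, the main HIF prolyl hydroxylase, had 8.94 to 10.1 and 9.62 to 10.8 FPKM and passed only at 0 Gy, by −0.17. EGLN3, a HIF-induced relative, had 0.857 to 1.74 and 0.496 to 1.31 FPKM and passed only at 4 Gy and 30 h, by 0.77. P4HA1 and P4HA2, the catalytic subunits of collagen prolyl hydroxylase, diverged. P4HA1 had 22.0 and 21.5, 26.9 and 27.3, and 20.3 and 19.9 FPKM in degron (++) cells and 37.8 and 39.4, 39.1 and 39.6, and 40.1 and 38.0 FPKM in degron (−) cells, and its log2 fold changes of −0.80 (SE 0.0393, adjusted p = 1.19e-07, limma), −0.52 and −0.93 all passed. P4HA2 had 21.9 to 24.2 and 18.8 to 21.6 FPKM, and passed only at 4 Gy and 30 h, by 0.20, or −0.07 under TPM. KDM3A, a histone demethylase and HIF target, was lower in all 3 conditions, with 8.29 to 10.3 against 15.4 to 16.2 FPKM and log2 fold changes of −0.61, −0.64 and −0.79.

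The largest difference was that of a hypoxia gene. BNIP3, an outer membrane protein of mitochondria that marks them for mitophagy, had 0.127 FPKM and was listed at 0 at 0 Gy, and had 0.145 and 0.127 at 30 h and 0.133 and 0.125 at 48 h after 4 Gy in degron (++) cells. In degron (−) cells it had 30.6 and 28.0, 30.7 and 32.6, and 29.9 and 25.9 FPKM. The gene was thus near 0 in all degron (++) libraries and expressed in all degron (−) libraries, with log2 fold changes of −4.83 (SE 0.0878, adjusted p = 3.2e-10, limma), −4.84 and −4.67 that depend on the pseudocount. The annotation names 39 BNIP3 pseudogenes that could share its reads. Its relative BNIP3L (NIX), another mitophagy receptor and HIF target, went the other way, with 26.3 to 32.4 against 17.1 to 20.8 FPKM and log2 fold changes of 0.56, 0.86 and 0.50.

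ADM, which encodes the secreted vasodilator adrenomedullin, had 13.6 and 15.5, 18.3 and 14.8, and 18.6 and 19.0 FPKM in degron (++) cells and 110 and 104, 103 and 103, and 103 and 102.1 FPKM in degron (−) cells. The libraries were far apart, and the log2 fold change was −2.80 (SE 0.0881, adjusted p = 8.31e-09, limma), −2.57 and −2.39. VEGFA, the main angiogenic growth factor, had 13.1 and 12.8, 15.1 and 15.5, and 12.6 and 11.5 FPKM in degron (++) cells and 21.2 and 21.0, 21.2 and 22.0, and 19.5 and 21.1 FPKM in degron (−) cells. It was lower in every degron (++) library, with log2 fold changes of −0.66 (SE 0.0547, adjusted p = 3.93e-06, limma), −0.47 and −0.70. The carbonic anhydrases, which buffer acid at the cell surface, did not pass the filter on low values. CA9, a widely used hypoxia marker, was listed at 0 in 11 of 12 libraries and had 0.061 FPKM in the other, and CA12 had 0.026 to 0.136 FPKM in degron (++) libraries, against 0.572 to 0.980 in degron (−).

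DDIT4 (REDD1), an inhibitor of mTORC1 that hypoxia, DNA damage and stress hormones induce, had 477 and 496, 420 and 397, and 379 and 393 FPKM in degron (++) cells. In degron (−) cells it had 134 and 112, 74.6 and 80.7, and 95.9 and 106 FPKM. All degron (++) libraries were higher, with a ratio of mean FPKM of 4.25, and the log2 fold change was 1.98 (SE 0.0832, adjusted p = 4.54e-08, limma), 2.38 and 1.92. MXI1, a MYC antagonist, had 4.84 to 5.88 against 3.45 to 3.72 FPKM, with log2 fold changes of 0.55, 0.44 and 0.50, of which the one at 30 h did not pass under TPM. NDRG1, a stress-responsive gene and HIF target, passed at 0 Gy by 0.42, though not under TPM, and at 30 h by 0.75, and had 0.13 at 48 h after 4 Gy. ANKRD37, a HIF target at 1.30 to 4.67 FPKM, had log2 fold changes of −0.09, 0.58 and −0.29 with an SE of 0.319 and passed in none.

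**Figure D3:**
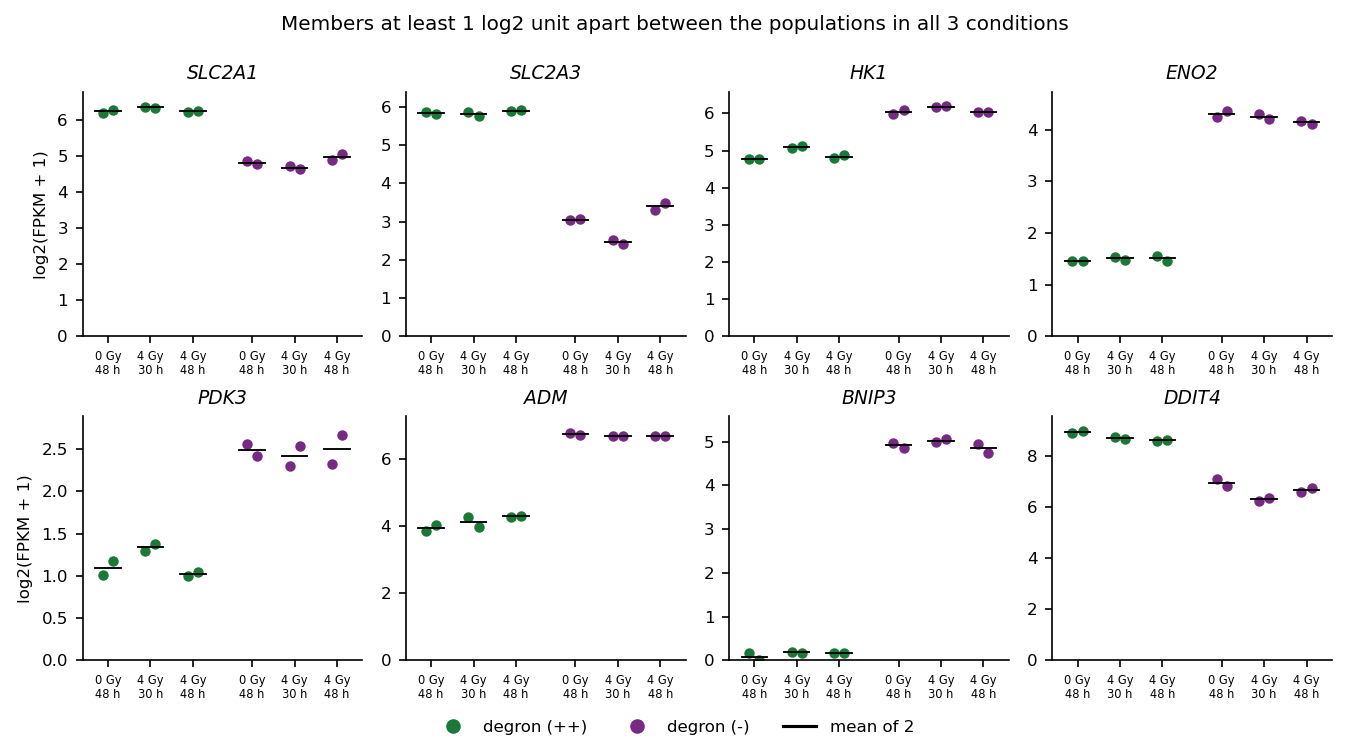
Expression as log2(FPKM + 1), by population, dose and time, of the 8 members that differed by at least 1 log2 unit between the populations in all 3 conditions; points are libraries and bars the mean of 2. SLC2A1, SLC2A3 and DDIT4 are higher in degron (++) (green), and HK1, ENO2, PDK3, ADM and BNIP3 in degron (−) (purple).

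Other genes of these pathways, from lists of genes that are no members, are counted against the 37.6% of all tested genes that were higher and the 40.2% that were lower at 0 Gy. Pyruvate kinase, listed under its older symbol PKM2, had 1012 to 1199 and 1077 to 1166 FPKM and log2 fold changes of −0.02, 0.04 and −0.06, none past the threshold. Of 14 tested further glycolytic genes, 4 were higher and 5 lower at 0 Gy, with the gluconeogenic enzyme FBP1 highest by 2.17 (7.44 to 9.79 against 0.739 to 1.79 FPKM) and the muscle enolase ENO3 lowest by −0.89. Of 13 genes of the entry of pyruvate into mitochondrial metabolism, 5 were higher and 5 lower, led by pyruvate carboxylase (PC) with 1.20 and by the pyruvate dehydrogenase subunit DLAT with −0.81. Of 7 pentose phosphate genes, 3 were higher and 3 lower, with transketolase (TKT) at 0.98 and the epimerase RPE at −0.60.

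Among 10 tested genes of oxygen sensing, 1 was higher and 6 lower at 0 Gy, where the shares of all genes were again 37.6% and 40.2%. TCEB2 (elongin B), a subunit of the VHL ligase, was the lowest at −0.91. ARNT, the partner of both HIF-α proteins, had −0.45, VHL −0.60 and the prolyl hydroxylase EGLN2 −0.82, while the ligase scaffold CUL2 had 0.43. Of 26 further HIF targets, 12 were higher and 12 lower, and the median was 0.07. ANGPTL4, a secreted regulator of lipoprotein lipase, was the lowest at −5.34 (0.961 to 2.80 against 77.0 to 98.8 FPKM), and IGFBP3, which binds insulin-like growth factors, the highest at 3.61 (106 to 123 against 5.67 to 14.8 FPKM). Of 4 glucose-sensing genes, 2 were higher and 1 lower at 0 Gy. MLX, the partner of the glucose-sensing factors, had 0.63 and MLXIP, one of these factors, −0.83. TXNIP, which rises with glucose, had log2 fold changes of −0.08, 0.24 and 0.06, of which the one at 30 h passed.

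To examine the effect of irradiation, 4 Gy was compared with 0 Gy at 48 h within each population. In degron (++) cells, SLC16A1 (0.22, SE 0.0412, adjusted p = 0.0402, limma) and LDHB (0.18, SE 0.0335, adjusted p = 0.0417, limma) rose, where 1.42% of all genes did. No member fell, where 0.402% of all genes did, and at an unadjusted p under 0.05 there were 3 higher and 5 lower members. In either direction, 2282 of the 12946 tested genes had such a p. Both rises were lost when any of the 4 libraries was left out. In degron (−) cells, SLC16A1 (0.30, adjusted p = 0.0062, limma), NDRG1 (0.42, adjusted p = 0.0252, limma) and SLC2A3 (0.34, adjusted p = 0.0281, limma) rose, where 3.85% of all genes did. None fell, where 0.873% of all genes did, and at an unadjusted p under 0.05 there were 7 higher and 5 lower. Such a p was found for 2704 of the 12946 tested genes in either direction. NDRG1 lost its call whichever of the 4 degron (−) libraries was left out, SLC2A3 unless it was replicate 1 at 4 Gy, and SLC16A1 only without replicate 2 at 4 Gy. Under TPM, NDRG1 and SLC2A3 lost theirs. The effect of dose did not differ between the populations past the threshold for any member, where 0.0772% of all genes did. An unadjusted p under 0.05 was found for 10 members and for 1758 of the 12946 tested genes.

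The 30 h and 48 h groups after 4 Gy were then compared. In degron (++) cells, 6 members were lower at 48 h than at 30 h, or 15.4%, where 0.548% of all genes were. None was higher, where 0.657% of all genes were. The 6 were LDHA (−0.35, SE 0.0299, adjusted p = 0.0028, limma), P4HA1 (−0.42, adjusted p = 0.00381, limma), NDRG1 (−0.70, adjusted p = 0.011, limma), HK1 (−0.26, adjusted p = 0.0319, limma), VEGFA (−0.32, adjusted p = 0.0383, limma) and PGK1 (−0.21, adjusted p = 0.0388, limma). The fold change was below 0 for 33 of 39 members, of which 19 had an unadjusted p under 0.05, against 0 of those above 0. In either direction, 2050 of the 12946 tested genes had such a p. The median was −0.12, and that of all tested genes 0.00. LDHA and P4HA1 passed whichever of the 4 libraries was left out, NDRG1 only without replicate 2 at 30 h, and HK1, VEGFA and PGK1 in none of these fits. None of the 6 passed when the fit held no other libraries than these 4.

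NDRG1 had 17.9 and 15.8 FPKM at 30 h and 10.01 and 9.92 at 48 h in degron (++) cells, and 9.57 and 8.52 at 0 Gy. In degron (−) cells it had 9.31 and 9.82 at 30 h, 9.02 and 8.98 at 48 h and 6.07 and 6.96 at 0 Gy. The degron (++) libraries at 30 h thus stood above all others. PGK1 had 383 and 378 FPKM at 30 h, 323 and 334 at 48 h and 308 and 320 at 0 Gy in degron (++) cells, and 336 and 345, 326 and 340, and 324 and 316 in degron (−) cells. For LDHA, NDRG1, P4HA1, VEGFA, PGK1 and HK1 alike, the unirradiated degron (++) libraries at 48 h lay below those at 30 h after 4 Gy. The summed FPKM of the 41 members was 12879 and 12632 at 30 h after 4 Gy, 11494 and 11909 at 48 h after 4 Gy and 11168 and 11577 at 0 Gy in degron (++) cells. Since no unirradiated group was taken at 30 h, time after irradiation and time in culture cannot be told apart.

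In degron (−) cells, SLC2A3 (0.93, SE 0.0685, adjusted p = 0.000274, limma), SLC16A1 (0.23, adjusted p = 0.0133, limma), SLC2A1 (0.30, adjusted p = 0.0272, limma) and DDIT4 (0.38, adjusted p = 0.0316, limma) were higher at 48 h than at 30 h after 4 Gy, where 6.01% of all genes were. None was lower, where 1.17% of all genes were, and 3 were at an unadjusted p under 0.05. In either direction, 10 members and 2890 of the 12946 tested genes had such a p. SLC2A3 alone passed whichever of the 4 libraries was left out, and in a fit of these libraries alone none passed. All 4 are genes that were higher in degron (++) cells, and other genes of that kind moved with them. As a percentage of the mean of degron (++) libraries in the same condition, SLC2A3 in degron (−) libraries stood at 7.83 to 8.66 at 30 h, 15.2 to 17.5 at 48 h after 4 Gy and 12.9 to 13.2 at 0 Gy. CDKN2A stood at 10.9 to 12.2, 17.6 to 19.5 and 14.5 to 17.9, CDH1 at 10.1 to 10.4, 17.6 to 19.2 and 12.02 to 13.1, and KRT7 at 9.61 to 10.4, 18.03 to 21.1 and 14.7 to 16.9. The part of this shared movement in the rises was not tested.

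The difference between 48 h and 30 h differed between the populations, by the interaction term, for 6 members, where 3.23% of all genes did. Most such genes had the same sign, with 2.72% of all genes more negative in degron (++) cells and 0.51% more positive. All 6 were more negative in degron (++) cells: SLC2A3 by −0.84 (SE 0.0969, adjusted p = 0.00583, limma), LDHA by −0.34 (SE 0.0423, adjusted p = 0.00765, limma), P4HA1 by −0.41 (adjusted p = 0.0116, limma), NDRG1 by −0.62 (adjusted p = 0.0278, limma), SLC2A1 by −0.41 (adjusted p = 0.0461, limma) and SLC16A1 by −0.27 (adjusted p = 0.0467, limma). They were of 2 kinds. LDHA, P4HA1 and NDRG1 fell in degron (++) cells and had −0.01, −0.01 and −0.08 in degron (−) cells, while SLC2A3, SLC2A1 and SLC16A1 rose in degron (−) cells and had 0.09, −0.12 and −0.04 in degron (++) cells. SLC2A3 and LDHA passed whichever of the 8 libraries was left out, and under TPM SLC2A3 alone of the 6 passed.

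**Figure D4:**
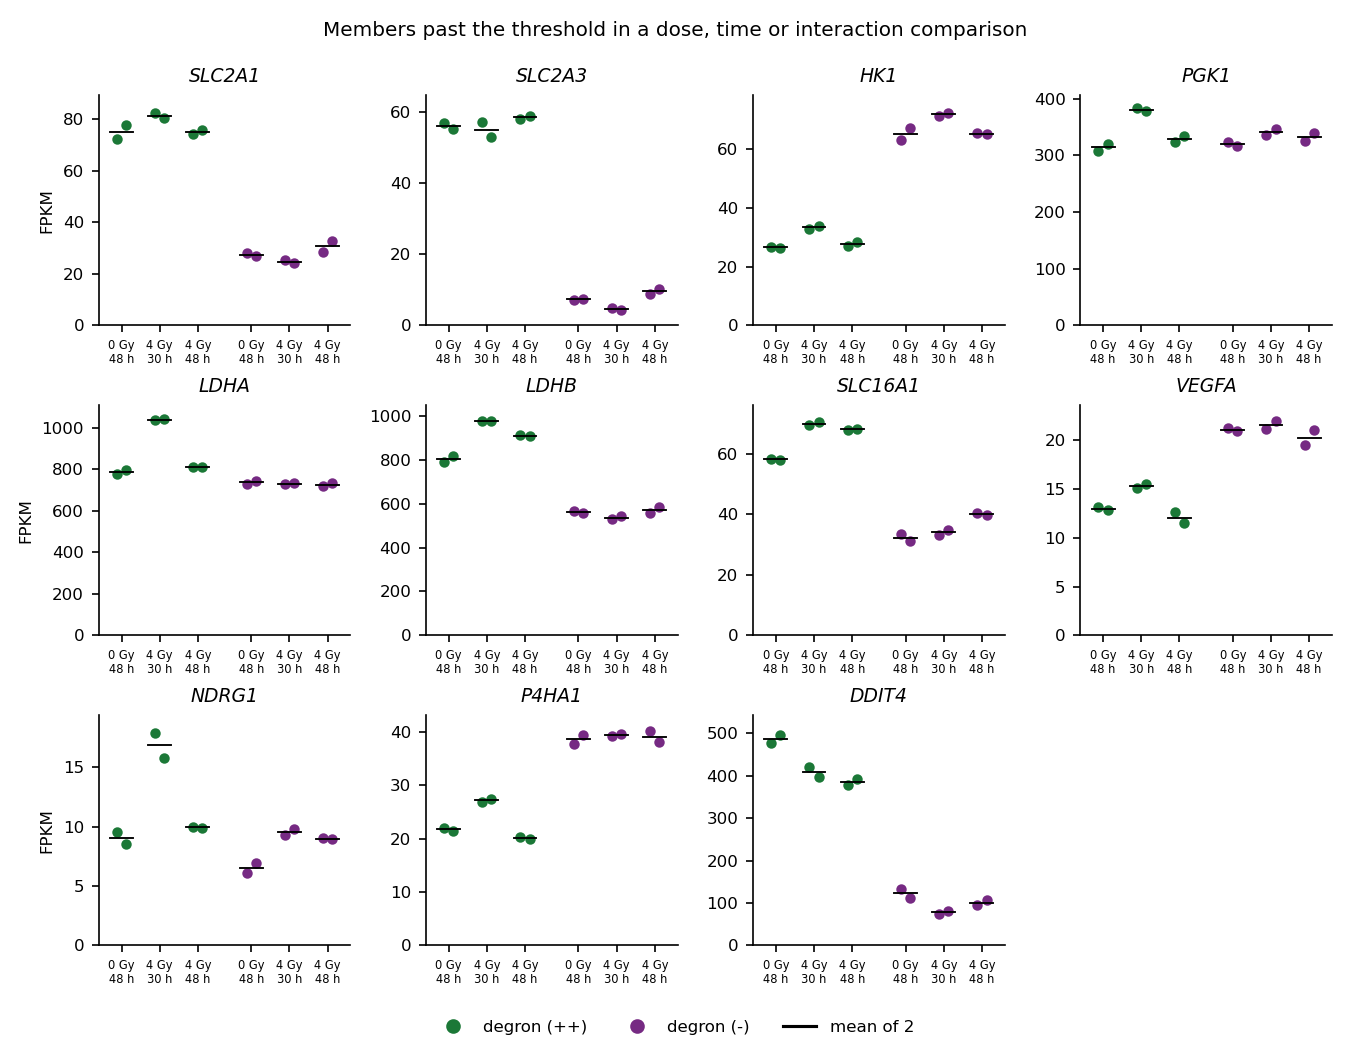
FPKM, by population, dose and time, of the 11 members past the threshold in a comparison of dose or time or in the interaction with population; points are libraries, bars the mean of 2, and each axis starts at 0. LDHA, NDRG1 and P4HA1 are highest among degron (++) libraries (green) at 4 Gy and 30 h, and SLC2A3 is lowest among degron (−) libraries (purple) in that condition.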

How the data were processed

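The 12 RNA libraries were made with a stranded mRNA kit, and each is 1 table of FPKM per gene symbol, which the authors computed and deposited. FPKM divide fragments by exon length and reads mapped. The submitters' processing notes name TopHat2 2.1.1, Bowtie2 2.2.8, SAMtools 0.1.18, Cuffdiff 2.2.1 and hg19, without their roles. Counts, filters and the strand setting are not given in the sources used here, so depth is unknown, no interval for counting error is given, and reads of antisense genes and near-identical copies may be shared.

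The 41 genes, the lists and the tests were chosen with earlier results of these data known. Groups follow the labels. From the FPKM, log2(FPKM + 1) of the 12946 genes with at least 1 FPKM in at least 2 libraries was fitted with limma 3.58.1 (lmFit, eBayes with trend, 6 group means) in R 4.3.3, with Benjamini-Hochberg adjustment over all of them and a threshold of 0.05. The fit was tested on simulated data. Values in every library are given for members at least 1 log2 unit apart in all 3 population comparisons, up to 10 members past the threshold in a dose, time or interaction comparison, the most abundant member of each role, and LDHA, LDHB, HIF1A and EPAS1. From the other lists, PKM2, ARNT, VHL, EGLN2, TXNIP and the member furthest in each direction at 0 Gy may be named, and 1 further gene of this rule is not reported here. PDK2 is named besides this rule, as a relative left out of a share. Shares within families are descriptions of the members only, with no test. Promoters are from a RefSeq table on GRCh38.p14 and pseudogene names from GENCODE, so coordinates are not those of the files' build.

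The alternatives were a filter at 5 FPKM or none, a pseudocount of 0.1, quantile normalization, rescaling to a sum of 1000000 (TPM), eBayes without trend, the replicate block, only the libraries compared, and each library left out in turn. Rescaling without MIR622 was added after the data were seen. Python 3.11.15 with pandas 2.3.3 and matplotlib 3.10.9 was used for tables and figures.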

Additional observations from a re-analysis of the deposited data

Results flagged for a closer look

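For 6 members the difference between 48 h and 30 h after 4 Gy differed between degron (++) and degron (−) cells past the threshold of the interaction term in limma, and these are given as values with no explanation. Of all tested genes 3.23% did so, 2.72% with a negative and 0.51% with a positive term. On the log2(FPKM + 1) scale, the difference in degron (++) minus that in degron (−) cells was −0.34 for LDHA, −0.62 for NDRG1, −0.41 for P4HA1, −0.27 for SLC16A1, −0.41 for SLC2A1 and −0.84 for SLC2A3. LDHA and SLC2A3 kept the call whichever of the 8 libraries was left out, P4HA1 with 5 of 8, SLC2A1 with 1 of 8, and NDRG1 and SLC16A1 with none. Groups of 2 libraries are too small to look for single libraries that stand apart.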

How the results depend on the processing

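The 3 population comparisons kept 27 to 29, 33 to 35 and 27 to 29 members past the threshold (0 Gy 48 h, 4 Gy 30 h and 4 Gy 48 h) with each library left out in turn, and no other setting moved these counts by over 1.5 times. Directions that turned did so only under another scaling. Under quantile normalization, the log2 fold change was −0.0822 for ENO1 and −0.0267 for PGK1 at 30 h, −0.237 for ENO1, −0.0321 for GAPDH and −0.194 for LDHA at 48 h after 4 Gy, and −0.173 for LDHA at 0 Gy. Under TPM it was −0.116 for LDHA and −0.0852 for SLC16A3 at 0 Gy, −0.0680 for P4HA2, −0.127 for PFKFB3, −0.0095 for PFKP, −0.124 for PGK1 and −0.0029 for SLC16A3 at 30 h, and −0.0893 for ENO1, −0.101 for LDHA, −0.0261 for PFKM and −0.0645 for SLC16A3 at 48 h after 4 Gy. Without MIR622 it was −0.0257 for LDHA at 0 Gy, −0.0088 for PFKFB3 at 30 h, and −0.0217 for ENO1 and −0.0330 for LDHA at 48 h after 4 Gy. TPM and rescaling without MIR622 multiply each library by a single factor. The median log2 fold change of all tested genes moved with them, to −0.21, −0.27 and −0.25 under TPM. Without MIR622 it was −0.13, −0.16 and −0.18, so small positive fold changes could turn by this shift. Quantile normalization, which gives all libraries the same set of values, moved it to 0.04, 0.04 and 0.05. Why the sums of the libraries differ was not tested.

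The comparisons of dose and time rested on more settings. For dose in degron (++) cells, the 2 calls became 0 without trend, with only the libraries compared, with quantile normalization and with each library left out (0 to 0), 1 without a filter, and 1 under TPM, a fall of a member not called otherwise. For dose in degron (−) cells, the 3 calls became 0 with only the libraries compared and 0 to 2 with a library left out. For time in degron (++) cells, the 6 calls became 3 without trend, 3 under TPM, 0 with only the libraries compared and 2 to 3 with a library left out. For time in degron (−) cells, the 4 calls became 2 under TPM, 0 with only the libraries compared and 1 to 3 with a library left out. The 6 interactions became 2 under TPM and 2 to 5 with a library left out. A group left with 1 library is assumed to vary like the others.

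Replicate numbers did not pair the samples: of 15 correlations between the deviations of same-numbered libraries, from −0.038 to 0.122, only 2 were over 0.1. With the replicate block, the calls were 29, 35 and 28 for the population comparisons, 0 and 3 for dose in degron (++) and degron (−), 4 and 3 for time, 0 for the dose and 4 for the time interaction. FPKM hold no counts, so low genes such as BNIP3 in degron (++) cells cannot be told from 0 by a counting error.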
